A study of Mus musculus with 8 samples.

Results

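The imprinted Dlk1-Dio3 locus on mouse chromosome 12 carries one of the largest groups of microRNA (miRNA) genes in the genome, and 10 of its mature miRNAs, fixed by name, were followed in adult liver. Of these 10 names, 9 had an entry among the 443 mature sequences counted: mmu-miR-127-3p, mmu-miR-300-3p, mmu-miR-379-5p (the species prefix is dropped from here on), miR-381-3p, miR-382-5p, miR-409-3p, miR-411-5p, miR-434-3p and miR-541-5p. miR-410-3p had none. The data come from 8 liver samples of male C57BL/6J mice, an inbred strain, 10 to 11 weeks old. For 2 weeks before sampling, the mice of 4 samples ate a normal diet (chow) and those of the other 4 a high-fructose diet (HFrD) with 10% of calories from fat, 70% from carbohydrate and 20% from protein. The labels call the HFrD samples a model of non-alcoholic fatty liver disease and state no genetic change in either group. Chloral hydrate was used as the anaesthetic. The same shares are not given for chow, so fructose cannot be told apart from other differences between the diets. Separate mice per sample are not stated, only replicate numbers, so p-values here measure a spread between samples that may be technical.

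At this locus the maternal chromosome produces non-coding RNAs (Meg3, an antisense transcript of Rtl1, Rian and Mirg) from which the miRNAs are cut, while the paternal chromosome expresses the protein genes Dlk1, Rtl1 and Dio3. The miRNAs are known for high levels in the embryo, placenta and brain and for low levels in most adult tissues. miR-127 and miR-434 lie opposite Rtl1, to whose messenger RNA they are fully complementary. The distal stretch from miR-379 to miR-410 matters for energy supply in newborn mice, and miR-379 is known as a glucocorticoid-responsive regulator of lipid secretion by mouse liver.

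The 9 sequences are shown because none of them shared its seed, the bases 2 to 8 that pair with target messages, with another sequence of the table, while some are close over their length. Seeds are in capitals, sequences run 5′ to 3′, and all 9 deposited sequences equalled the RefSeq entry (GRCm38.p6, plus strand). miR-434-5p, the other arm of the miR-434 hairpin and no member by name, is added because of its level.
miR-127-3p (chr12:109592888-109592909): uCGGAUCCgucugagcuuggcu
miR-434-5p (chr12:109594528-109594549): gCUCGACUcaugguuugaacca
miR-434-3p (chr12:109594565-109594586): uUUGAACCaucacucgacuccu
miR-379-5p (chr12:109709065-109709085): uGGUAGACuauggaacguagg
miR-411-5p (chr12:109710190-109710210): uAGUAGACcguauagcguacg
miR-300-3p (chr12:109724363-109724384): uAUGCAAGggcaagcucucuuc
miR-381-3p (chr12:109726870-109726891): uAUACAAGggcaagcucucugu
miR-382-5p (chr12:109733781-109733802): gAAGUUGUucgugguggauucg
miR-541-5p (chr12:109742422-109742446): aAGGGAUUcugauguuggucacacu
miR-409-3p (chr12:109743204-109743225): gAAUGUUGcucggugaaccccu

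Within the group, 2 pairs were alike. miR-300-3p and miR-381-3p differed at 3 of 22 bases, counted from the 5′ end, with miR-300-3p first: G4A, U21G and C22U. A single one of these lies in the seed. miR-379-5p and miR-411-5p differed at 7 of 21 bases, and again at 1 base of the seed, G2A. The nearest other sequence to miR-127-3p in the table differed at 11 bases.

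Libraries held 1120035 to 1638036 counts, so 1 count was worth 0.610 to 0.893 CPM (counts scaled by the library total). The hepatocyte markers miR-122-5p, miR-192-5p, miR-194-5p and miR-148a-3p summed to 637499.9 ± 25932 CPM in chow and 626403 ± 20190.3 CPM in HFrD (SD, n = 4 each). The neural marker miR-124-3p had no entry, and miR-9-5p was at 1.57 to 3.57 CPM. Of the stromal list (5 of 5 markers with an entry) the summed level was 3999 to 4927 CPM in chow and 3721 to 5463 CPM in HFrD. The pancreas and neuroendocrine list (2 of 3) summed to 240 to 279 CPM in chow and 195 to 271 CPM in HFrD, with miR-7a-5p as its highest member. The corresponding ranges were 75.6 to 84.3 and 72.0 to 143 CPM for erythroid markers (3 of 3), 13.4 to 33.4 and 24.1 to 31.7 CPM for immune markers (5 of 5), and 519 to 739 and 534 to 660 CPM for muscle markers (2 of 3, miR-133a-3p having no entry). They were 478 to 641 and 457 to 698 CPM for biliary markers (3 of 4, miR-141-3p having no entry) and 7711 to 9124 and 6259 to 7876 CPM for endothelial markers (3 of 3). All 9 lists overlapped between the diets. Of the markers tested, miR-126a-3p of the endothelial list (3 tested) alone was called between diets (edgeR, adjusted p under 0.05), as lower in HFrD. Over all miRNAs, 10 of 170 tested (5.88%) were called. Of the immune list only 1 of 5 markers was tested, and of the neural list 0. The part of other cell types in the cluster's levels was not tested, and in whole liver fewer cells of a type and less RNA per cell cannot be told apart. In a principal component analysis of all tested miRNAs, chow replicate 4 lay at −5.14 on the first axis (37.4% of the variance), the other 3 chow samples at −1.69 to −0.52 and all 4 HFrD samples above 0, up to 2.69.

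The cluster was a small part of the liver's miRNAs. All 24 mature names of the locus with an entry held 4209 counts over the 8 libraries, or 0.0402% of the total, and the 9 members held 3515 of them (83.5%). Summed over the 9 members, the level was 306, 367, 341 and 325 CPM in chow replicates 1 to 4 and 314, 385, 301 and 364 CPM in HFrD replicates 1 to 4. Chow samples averaged 335 ± 25.7 CPM and HFrD samples 341 ± 40.0 CPM (SD, n = 4 each), a log2 ratio of 0.03. The diets overlapped, with HFrD replicates 2 and 3 as the highest and the lowest of the 8 samples, and the 2 means differed by less than the spread within either diet. No p is given for this sum, since its members were chosen with earlier results known. miR-379-5p alone held 58.6% of the members' counts and miR-127-3p 26.8%, so these 2 together held 85.3%.

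**Figure D1:**
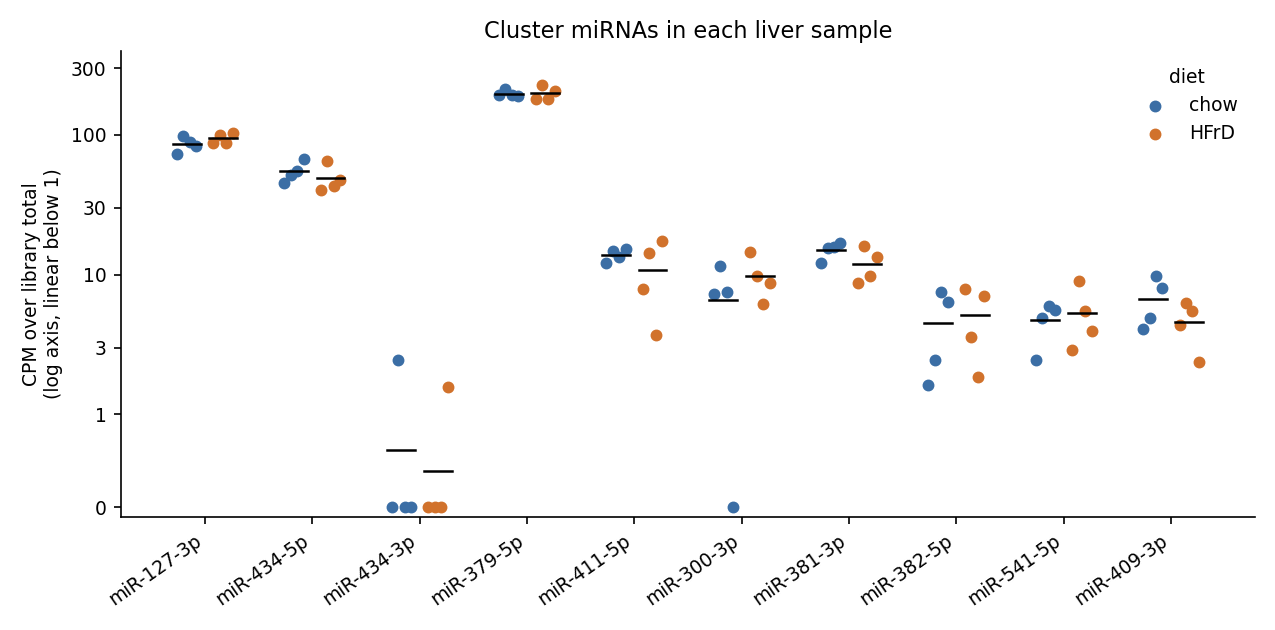
CPM over the library total (log axis, linear below 1) of the 9 members and miR-434-5p in genomic order, with 1 point per sample, chow in blue, HFrD in orange, and a black line at each mean. miR-379-5p lies at 180 to 226 CPM and miR-127-3p at 73.1 to 103 CPM, the other members lie below 20 CPM, and the diets overlap for every name shown.

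miR-379-5p was the most abundant member, ranked 54 of 443 sequences. Its precursor is the first of the distal stretch and lies between annotated genes at chr12:109709060-109709125. The chow libraries held 238, 260, 257 and 240 of its counts and the HFrD libraries 250, 253, 297 and 264. Over the library totals this came to 193, 213, 192 and 191 CPM in chow and to 180, 226, 181 and 207 CPM in HFrD. HFrD samples lay on both sides of the chow samples, so the groups overlapped. In chow the coefficient of variation of its CPM, over library sizes scaled by trimmed mean of M-values (TMM), was 6.78%, close to the 6.34% of counting error alone, and in HFrD it was 12.5% against 6.13%. edgeR gave a log2 fold change (HFrD against chow) of −0.11 (SE 0.12, adjusted p = 0.533). Its 95% interval of −0.36 to 0.13 allows levels in HFrD from 0.779 to 1.10 times those in chow. The sign depended on the scaling: with library totals the value was 0.01, and with the authors' normalized values it was 0.00066.

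miR-127-3p, which guides cutting of the Rtl1 message in the placenta and embryo, was next, at rank 69. Its precursor lies opposite an exon of Rtl1 at chr12:109592846-109592915. It was counted 90, 120, 120 and 104 times in chow and 121, 112, 143 and 131 times in HFrD. This was 73.1, 98.1, 89.6 and 82.7 CPM in chow and 87.3, 100, 87.3 and 103 CPM in HFrD. Chow replicate 1 was the lowest and HFrD replicate 4 the highest, with the other 6 samples intermixed. The diets differed by a log2 fold change of 0.01 (edgeR, SE 0.14, adjusted p = 0.960), with a 95% interval of −0.30 to 0.31. Its sign changed when any of 4 libraries was left out, with values down to −0.09.

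The ratio of miR-379-5p to miR-127-3p within a library does not depend on library size and was taken up after the levels had been seen. It was 2.64, 2.17, 2.14 and 2.31 in chow and 2.07, 2.26, 2.08 and 2.02 in HFrD. In HFrD 3 of 4 samples lay below all chow samples, and HFrD replicate 2 lay among them. The means were 2.32 ± 0.231 (SD, n = 4) and 2.10 ± 0.107 (SD, n = 4), a log2 difference of −0.13 that did not pass (exact two-sided permutation p = 0.143, where 0.0286 is the smallest p of the 70 assignments). Without chow replicate 1 it was −0.07.

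The miR-434 hairpin gave its counts almost entirely from the 5p arm. miR-434-3p, the member by name, was listed with 3 counts in chow replicate 2 and 2 counts in HFrD replicate 4 and blank in the other 6 libraries. miR-434-5p was counted 56, 63, 74 and 84 times in chow and 56, 73, 70 and 61 times in HFrD. With 537 counts against 5, the 5p arm held 99.1% of the hairpin's listed counts. The hairpin (RefSeq, GRCm38.p6, chr12:109594506-109594599, plus strand) is shown with the arms in capitals, because they have a run of 9 bases in common, uuugaacca, at the end of one and the start of the other.
Mir434: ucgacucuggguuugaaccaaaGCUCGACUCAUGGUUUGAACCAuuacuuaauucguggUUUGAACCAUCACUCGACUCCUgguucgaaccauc

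At 45.5, 51.5, 55.2 and 66.8 CPM in chow and 40.4, 65.2, 42.7 and 47.9 CPM in HFrD, miR-434-5p was the third most abundant miRNA of the locus and held 12.8% of its counts. HFrD replicates 1 and 3 lay below all 4 chow samples and HFrD replicate 4 below 3 of them. HFrD replicate 2 was second only to chow replicate 4, so the groups overlapped. In edgeR its log2 fold change was −0.30 (SE 0.20, 95% interval −0.72 to 0.12, adjusted p = 0.405). It was −0.18 without chow replicate 4, −0.17 without HFrD replicate 1, −0.46 without HFrD replicate 2 and −0.13 with the authors' normalized values, and not called in any of these. Among the other hairpins of members, miR-409 also had both arms listed, with 59 counts of the 3p and 7 of the 5p arm. miR-409-5p was listed in HFrD replicates 1, 2 and 4, with 3, 2 and 2 counts, and blank in all 4 chow libraries. Since the smallest listed count is 2, a blank may stand for 0 or 1 count and no fold is given.

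Next to miR-379 the levels dropped sharply. The precursor of miR-411-5p lies 1049 bases beyond that of miR-379, and over the 8 samples the mean level of miR-379-5p was 16.1 times that of miR-411-5p. It was counted 15, 18, 18 and 19 times in chow and 11, 16, 6 and 22 times in HFrD. The chow samples lay close together, at 12.2 to 15.1 CPM, while the HFrD samples spread from 3.66 to 17.3 CPM around them. The lowest, HFrD replicate 3, rests on 6 counts (exact binomial 95% interval 1.34 to 7.97 CPM, for counting error alone). The log2 fold change of miR-411-5p was −0.54 (SE 0.35, 95% interval −1.28 to 0.20, adjusted p = 0.396, edgeR), and −0.25 without HFrD replicate 3. Without HFrD replicate 4, the highest, it was −0.88, and without HFrD replicate 1 or 2 it stayed below 0.

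miR-381-3p was counted 15, 19, 21 and 21 times in chow and 12, 18, 16 and 17 times in HFrD. In CPM this was 12.2, 15.5, 15.7 and 16.7 in chow and 8.66, 16.1, 9.77 and 13.3 in HFrD. HFrD replicates 1 and 3 lay below all chow samples, and replicates 2 and 4 among them. The log2 fold change was −0.48 (SE 0.27, 95% interval −1.05 to 0.10, adjusted p = 0.330, edgeR), the smallest p of the members (0.0972 unadjusted). It was −0.36 with library totals and −0.18 with the authors' normalized values, which are rounded and were not TMM-scaled. The parts of the rounding, the scaling and the 1 added before the log2 were not tested. Summed over a library, the counts were 4.21 to 6.19 times those rounded values.

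miR-300-3p, whose precursor lies 2430 bases upstream of that of miR-381, was listed with 9, 14 and 10 counts in chow replicates 1 to 3 and blank in chow replicate 4. It had 20, 11, 10 and 11 counts in the HFrD libraries. Apart from that blank the diets overlapped, at 7.31 to 11.4 CPM in chow and 6.10 to 14.4 CPM in HFrD. The edgeR value, a log2 fold change of 0.43 (SE 0.47, 95% interval −0.55 to 1.41, adjusted p = 0.547), rested on chow replicate 4, without which it was 0.03. In that library its near neighbour in sequence, miR-381-3p, stood at 21 counts, which with chow replicate 3 was its highest count. Summed after the values had been seen, both miRNAs together gave 24, 33, 31 and 21 counts in chow and 32, 29, 26 and 28 in HFrD. Their sum averaged 21.6 ± 4.46 CPM in chow and 21.7 ± 4.22 CPM in HFrD (SD, n = 4 each). The sources used here do not state how reads that fit either sequence were assigned.

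The 3 members within the Mirg transcript, like miR-434-3p, did not pass the filter on low counts. miR-382-5p was counted 2, 3, 10 and 8 times in chow and 11, 4, 3 and 9 times in HFrD. miR-541-5p was counted 3, 6, 8 and 7 times in chow and 4, 10, 9 and 5 times in HFrD. miR-409-3p was counted 5, 6, 13 and 10 times in chow and 6, 7, 9 and 3 times in HFrD. In each case the diets overlapped. For miR-409-3p the 2 highest samples were chow replicates 3 and 4 (9.70 and 7.96 CPM) and the lowest was HFrD replicate 4 (2.36 CPM). Mean CPM in chow and HFrD was 4.48 ± 2.87 and 5.10 ± 2.88 for miR-382-5p, 4.72 ± 1.58 and 5.31 ± 2.64 for miR-541-5p, and 6.66 ± 2.63 and 4.61 ± 1.70 for miR-409-3p (SD, n = 4 each). In a fit without the filter their log2 fold changes were 0.08 (SE 0.55), 0.08 (SE 0.53) and −0.59 (SE 0.50), and none passed (adjusted p = 0.966, 0.966 and 0.575, edgeR).

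Of the 9 members, 5 passed the filter, and edgeR's quasi-likelihood test called none of them between diets, where it called 10 of 170 tested miRNAs (5.88%), with 6 lower (3.53%) and 4 higher (2.35%) in HFrD. At an unadjusted p under 0.05 it also gave 0 of 5 members, against 40 of 170 (23.5%). It gave 1 of 5 without HFrD replicate 2 or without HFrD replicate 4, where the share of all miRNAs was not counted. DESeq2 gave an adjusted p to 2 of the 5, miR-379-5p and miR-127-3p, and called neither, and limma on the authors' normalized values called 0 of 5. In 0 of 5 members, against 24 of 170 tested miRNAs (14.1%), the diets did not overlap in TMM-scaled CPM. The members' log2 fold changes were below 0 in 3 and above 0 in 2, with a median of −0.11, while 81 of all 170 (47.6%) were below 0 with a median of 0.01. With library totals the median of all 170 moved to 0.13 and that of the members to 0.01. A p that misses the threshold does not show equal levels: the 95% intervals are narrow for miR-379-5p and miR-127-3p and wide for the other 3.

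**Figure D2:**
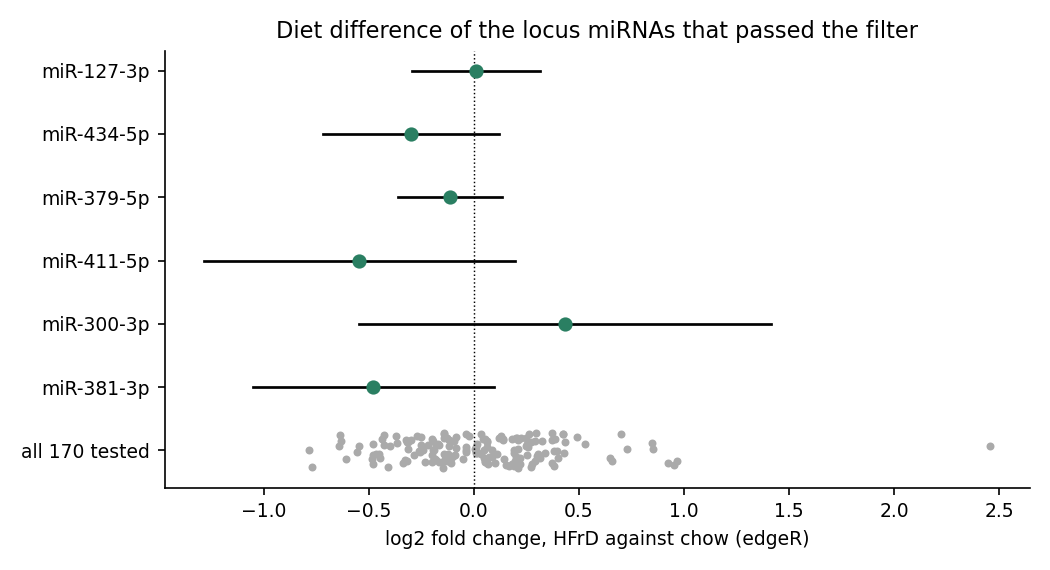
Log2 fold change between HFrD and chow (edgeR) of the 5 tested members and miR-434-5p, as green points with black lines for the 95% interval, above grey points for all 170 tested miRNAs, scattered vertically at random. All 6 intervals include 0, from −0.36 to 0.13 for miR-379-5p up to −0.55 to 1.41 for miR-300-3p.

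Members differed in how much they varied between samples of one diet. Averaged over the diets, the coefficient of variation of TMM-scaled CPM was 9.63% for miR-379-5p, which ranked 37 from the lowest among 170 tested miRNAs, and 12.4% for miR-127-3p, at rank 57. It was 23.5% for miR-381-3p, 35.9% for miR-411-5p and 51.6% for miR-300-3p (ranks 133, 161 and 169), against a median of 16.7% over the tested miRNAs. The 3 variable members are the rarer ones, where counting error alone gives 22.9% (chow) and 25.2% (HFrD) for miR-381-3p and 23.9% and 27.0% for miR-411-5p. For miR-300-3p it gives 34.8% and 27.7%, where 73.6% was observed in chow, with its blank in replicate 4, and 29.7% in HFrD. In chow the observed 14.4% of miR-411-5p lay below that, and in HFrD the observed 57.5% lay above it.

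Whether the members rise and fall together from sample to sample was examined for the 10 pairs of tested members, on log2 CPM over the 8 samples, which share the scaling of their library. The highest correlation was between miR-379-5p and miR-381-3p, with Pearson's r = 0.92 (exact permutation p = 0.00198, adjusted over the 10 pairs 0.0198) and Spearman's rho = 0.81 (exact permutation p = 0.0218, adjusted 0.109). Without the 2 samples farthest from the median of miR-379-5p, r was 0.85. The call depended on the scaling: r was 0.91 with DESeq2-type size factors (exact permutation, adjusted p = 0.0139), but 0.67 with library totals (exact permutation, adjusted p = 0.216), 0.78 with upper quartile factors (adjusted p = 0.148) and 0.66 with the authors' normalized values (adjusted p = 0.238). The authors' values are rounded, which is coarse at the counts of miR-381-3p, but library totals, which are not rounded, gave a similar r. The part of the rounding was not tested. With 1 library left out (n = 7), r ran from 0.83 to 0.95. The adjusted p of the exact permutation test was then 0.0635 without chow replicate 1, 0.140, 0.0787 and 0.0575 without HFrD replicates 1, 3 and 4, and 0.0198 to 0.0317 without each one of the other 4 libraries. A value within a diet is not given, as 4 samples are too few. The samples were not centred by diet, so each r and p may also hold a diet difference shared by both miRNAs.

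For miR-381-3p and miR-411-5p r was 0.77 (exact permutation p = 0.0277, adjusted 0.138; rho = 0.81, p = 0.0218, adjusted 0.109), and without the 2 farthest samples it was 0.51. For miR-127-3p and miR-379-5p, whose precursors lie 116 kb apart, r was 0.72 (exact permutation p = 0.0478, adjusted 0.159; rho = 0.76, p = 0.0368, adjusted 0.123), and 0.62 without the 2 farthest. With upper quartile factors this pair passed instead (r = 0.88, exact permutation, adjusted p = 0.0246). The 6 pairs without miR-300-3p had r from 0.39 to 0.92 and the 4 pairs with it from −0.49 to −0.07. Without chow replicate 4, where miR-300-3p was blank, the latter ran from −0.10 to 0.25, and without the 2 samples farthest from the median of the member named first in each pair they ran from 0.50 to 0.95.

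**Figure D3:**
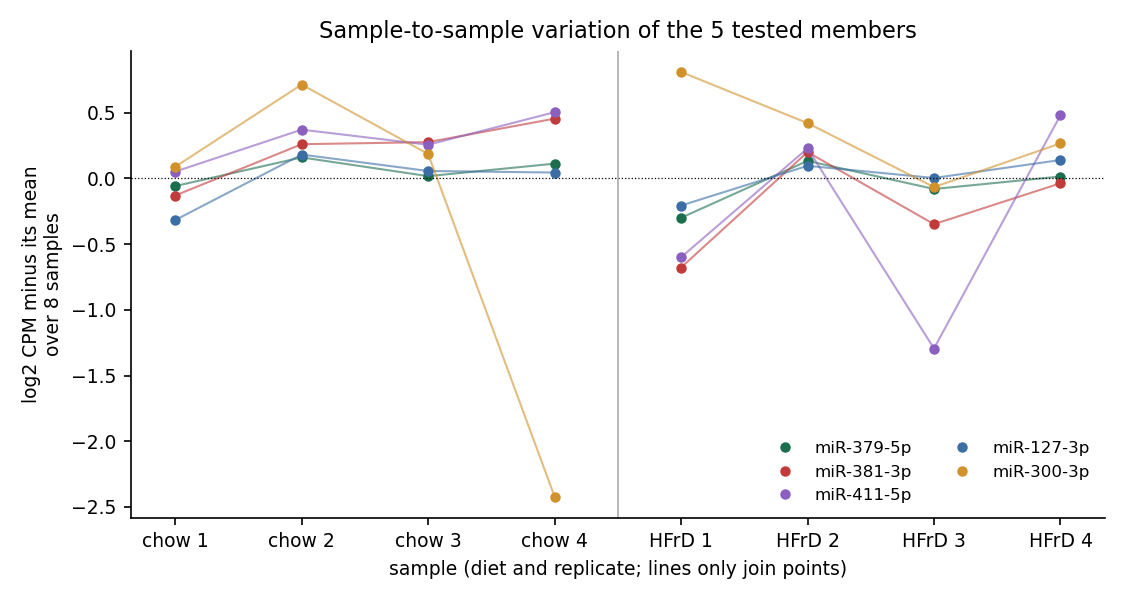
Log2 CPM (TMM-scaled, prior count 2) of the 5 tested members minus each one's mean over the 8 samples, by sample, with lines that only join the points of a diet. miR-379-5p, miR-381-3p and miR-411-5p lie below their means in HFrD replicates 1 and 3 and above them in chow replicate 4, where miR-300-3p is at −2.42.

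Among the 164 tested miRNAs from outside the locus, the pattern of the summed members over the 8 samples was most like that of miR-17-5p (Pearson's r = 0.74), miR-363-3p (0.69) and miR-30c-2-3p (0.68). These values describe the likeness by which the 3 were picked and share the scaling of the libraries.

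Along the locus, counts came from few of its precursors. GENCODE M21 (GRCm38) places 61 miRNA precursors between the start of Dlk1 and the end of Dio3, and 22 of them had an entry. In the distal stretch from miR-379 to miR-410, 15 of 37 plus-strand precursors had one, and the level did not follow the order along the genome. The precursor of miR-299a, the next after that of miR-411, had no entry, and neither had miR-410 at the far end, 34.7 kb from miR-379. In the proximal stretch opposite Rtl1, miR-127 and miR-434 were separated by 1590 bases and differed 1.72-fold in level with both arms summed. Their neighbours there were near the limit of the table, with 6 counts in all for miR-433-3p and 3 for miR-136-5p. Levels of different miRNAs may also reflect how well each sequence is captured, which was not tested.

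**Figure D4:**
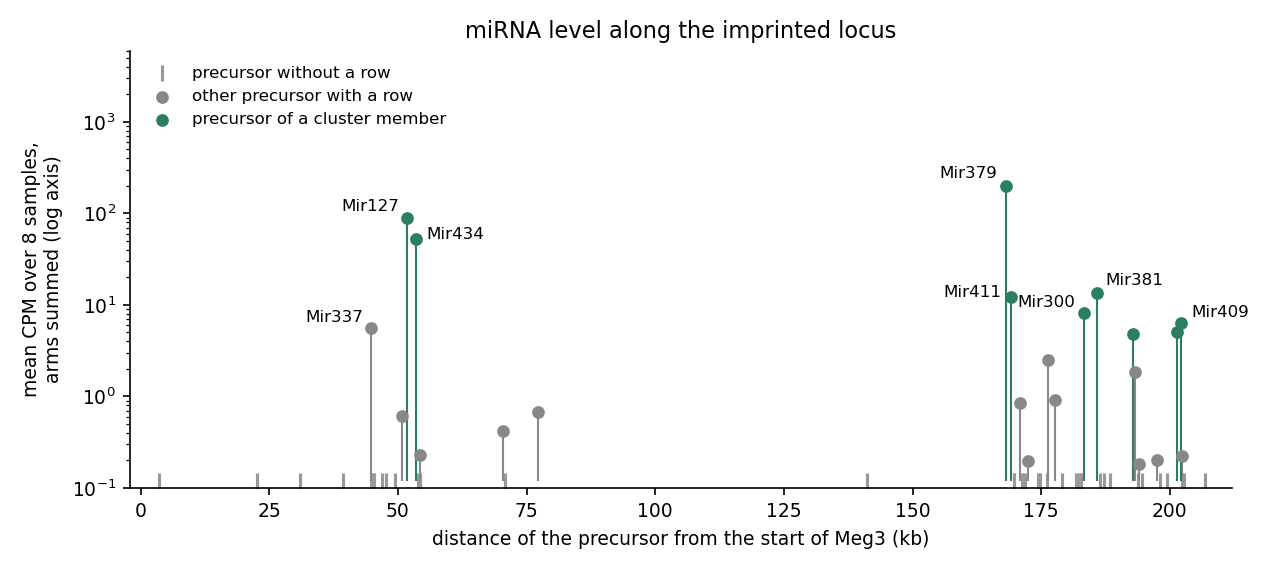
Mean CPM over the 8 samples, arms summed (log axis), of each miRNA precursor by its distance from the start of Meg3 in kb, in green for precursors of members and grey for others, with ticks at the base for precursors without an entry. Mir1247, next to Dio3 and without an entry, lies beyond the axis. The highest points are Mir379 at 198 CPM, Mir127 at 90.1 CPM and Mir434 at 52.4 CPM.

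Besides the members, 15 further mature miRNAs of the locus had an entry. Of these miR-434-5p alone passed the filter and was tested, and edgeR did not call it. miR-337-5p, from the proximal end between annotated genes, came next with 4, 11, 7 and 13 counts in chow and 4, 9 and 10 counts in HFrD replicates 1 to 3, and was blank in HFrD replicate 4. miR-543-3p had 27 counts in all and was listed in 2 chow and all 4 HFrD libraries, and miR-134-5p, a regulator of dendritic spines in neurons, had 19 counts in 5 libraries. Of the 15, 11 had at most 10 counts in all and 9 were listed in at most 3 libraries.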

How the data were processed

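Raw tag counts per mature miRNA and the authors' normalized values, a score here, were deposited for 8 mouse liver samples, per the file headers. The score is the count divided by a number constant within a library and then rounded. Tools named were cutadapt 1.9.2 and Novoalign 3.02.12 on mm10, per the submitters' processing notes. The protocol in the labels describes ribosomal RNA depletion and a stranded total RNA kit. Not given in the sources used here: how small RNA was selected, which miRNA reference was used, how reads matching several miRNAs were counted and what the divisor is. Summed counts were 4.21 times the summed score in the smallest library (1120035 counts) and 6.19 times in the largest (1638036 counts). The score is thus scaled much like library totals, and these settings are not independent checks.

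Columns were matched by the sample descriptions. The 484 entries were merged by mature sequence into 443, and blank cells (35.3%) were read as 0, the smallest listed count being 2. Library totals of 1120035 to 1638036 set the precision, and intervals cover counting error only, as PCR copies without molecular identifiers may repeat 1 molecule.

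Diets were compared with edgeR 4.0.16 (quasi-likelihood, two-sided, TMM factors, filterByExpr at a minimum count of 10, R 4.3.3) over all 170 miRNAs that passed, with Benjamini-Hochberg adjustment and a threshold of 0.05. The SE is the log2 fold change divided by the root of the F statistic, and its 95% interval uses the fit's degrees of freedom. The fit was tested on simulated data, with the same dispersion for all miRNAs and libraries that differed only in their totals, which is simpler than the real data. There it called 34 of 35 miRNAs changed 2-fold, 30 of 45 changed 1.5-fold and 2 of 88 unchanged. Alternatives used DESeq2 1.42.0, limma 3.58.1 (log2 of the score plus 1), other factors and filters, a replicate block and each library left out. Correlations used log2 CPM with prior count 2 and exact permutations. Python 3.11.15, pandas 2.3.3, scipy 1.17.1 and matplotlib 3.10.9 were used.

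Every name of the rule is given with its counts, other miRNAs of the locus are named where they passed the filter, and the 3 miRNAs most like the summed members are named. miRNAs of the locus below the filter, and the ratio and sum of 2 members, were singled out after their values were seen. Members and lists were chosen with earlier results of these data known. Precursor positions come from GENCODE M21 and mature sequences from RefSeq, both on GRCm38, the assembly behind mm10. Of the 24 names of the locus, 23 had an identical RefSeq sequence.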

Additional observations from a re-analysis of the deposited data

Results flagged for a closer look

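In groups of 4 samples, a sample was picked out where its gap to the nearest other, as a share of the group's range, exceeded Dixon's 95% critical value, which chance gives in about 1 in 20 groups. This held in 3 of 22 groups. miR-379-5p was highest in chow replicate 2, at 213 CPM, where replicates 1, 3 and 4 of that diet had 191 to 193 CPM (gap 0.890 of the range). Counting error alone gives chow replicate 2 an exact binomial 95% interval of 187 to 240 CPM, which covers them. miR-434-3p was highest in chow replicate 2 and in HFrD replicate 4 (gap 1 in both), as each was the one library of its diet with a listed value, at 2.45 and 1.57 CPM.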

How the results depend on the processing

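No member was called under any of the 18 alternatives to the diet fit, which left all 5 tested, although DESeq2 gave an adjusted p to 2 of them. An unadjusted p under 0.05 was found for 1 of 5 without HFrD replicate 2 and 1 of 5 without HFrD replicate 4. In the other 16 alternatives (DESeq2 and limma included) it was found for none. With all 8 samples, edgeR gave such a p to 23.5% of the 170 tested miRNAs, and this share was not counted for the alternatives. The number of all tested miRNAs called moved from 10 to 1 with upper quartile factors, 23 with library totals, 22 without a filter, 3 with limma on the authors' normalized values and 17 without predicted sequences. Over the libraries left out it ran from 1 (without chow replicate 2) to 17 (without chow replicate 3), with 6 without HFrD replicate 4. The cause was not tested. The sign of miR-379-5p reversed with library totals (0.0082) and the authors' normalized values (0.00066). That of miR-127-3p reversed without chow replicate 1 (−0.091), chow replicate 4 (−0.0028), HFrD replicate 2 (−0.02) and HFrD replicate 4 (−0.03) and over the libraries left out reached 0.098 (without HFrD replicate 1). The other 3 tested members kept their sign and stayed uncalled in all alternatives that gave them an adjusted p (17 each), with log2 fold changes from −0.64 to −0.18 for miR-381-3p, −0.88 to −0.25 for miR-411-5p and 0.03 to 0.83 for miR-300-3p. For miR-381-3p the value nearest to no change came from the authors' normalized values, which are rounded and were not TMM-scaled, and the cause was not tested. The median of the members ran from −0.18 to 0.01.

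The summed level was 2386 CPM in chow and 2353 CPM in HFrD over library totals without the 5 most abundant miRNAs, and 403 and 407 CPM for all 24 names of the locus, both by construction. Its log2 ratio ran from −0.10 (TMM-scaled) to 0.08 (without HFrD replicate 3), within the spread of replicates. The count of correlated pairs went from 1 to 0 with library totals and with the authors' normalized values, and ran from 0 to 1 over the libraries left out. The log2 difference in the ratio of miR-379-5p to miR-127-3p ran from −0.17 to −0.07 without 1 library.

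Replicate numbers are shared by the diets but not stated to pair mice. Same-numbered samples had correlations of their deviations from −0.10 to 0.15, and samples of different number from −0.20 to 0.13. So few values cannot exclude a pairing. With the replicate block, 15 miRNAs and 0 members were called. With at most 22 counts a library, the rarer members have wide intervals.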
